A study of Mus musculus with 195 samples.

Results

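The genes described here are 9 genes of cell adhesion, taken by name from the 19736 genes in the deposited table of gene counts: Cdh1, Cdh2, Epcam, Cldn6, Cldn7, Ncam1, Itgb1, Pecam1 and Cd24a. All 9 were matched by Ensembl identifier and all 9 had at least 1 molecule in the single cells. Molecules were counted at the 3′ end of polyadenylated RNA in single mouse cells by BATSeq, in which an oligo-dT primer adds a cell identifier and a unique molecular identifier (UMI) to each transcript, so that reads sharing a UMI count as 1 molecule. The cells were 48 ESC-2i (embryonic stem cells in 2i medium with 1 µM PD0325901, 3 µM CHIR99021 and 10 ng/ml LIF), 48 ESC-FCS (10% serum with 10 ng/ml LIF) and 48 neural stem cells (NSC), with 48 further ESC-FCS control cells, 1 pool library of ESC-FCS and 2 pool libraries of ESC-2i as checks. All embryonic stem cells were of the 46C line, which carries a green fluorescent protein reporter at Sox1 and derives from E14tg2a, and the NSC were made from them by differentiation in monolayer, sorting for the reporter and culture with EGF and bFGF on laminin. ESC grew on gelatin, and only small cells in G0/G1 were sorted. Each ESC-2i pool was 48 cells whose RNA was purified before library preparation, unlike the single cells. Since separate cultures are not named in the labels, a population stands for 1 culture of 1 line, and populations were compared by levels and counting intervals with no test between them.

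Cadherins are calcium-dependent receptors that bind the same cadherin on the neighbouring cell, and catenins tie their inner ends to actin. Epithelial cells and embryonic stem cells use E-cadherin (Cdh1), and neural progenitors use N-cadherin (Cdh2), so that the exchange of the former for the latter is a known step when the neural plate forms. Epcam and the claudins belong to epithelial contacts, Ncam1 and Pecam1 are immunoglobulin-type receptors, Itgb1 is the integrin subunit shared by most receptors for laminin and fibronectin, and Cd24a is a small glycolipid-anchored surface protein found on both epithelial and neural precursors.

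The cells kept had at least 1000 molecules on genes, and numbered 33 ESC-2i, 33 ESC-FCS, 41 NSC and 42 control cells. Depth differed between them, with medians of 10864 molecules per cell in ESC-2i, 6375 in ESC-FCS, 3282 in NSC and 4723.5 in control cells. Levels are therefore given as molecules pooled over a population, per 10000 molecules on genes, with exact 95% Poisson intervals that cover counting error only. The same 24 cell barcodes were used in all 8 single-cell libraries. Of 12 embryonic stem cell markers, all 12 were seen in ESC-2i and in ESC-FCS, although Pou5f1 had only 19 and 4 molecules there, and 3 were seen in NSC, where the summed level was 1.25 against 35.3 for ESC-2i cells and 31.9 for ESC-FCS cells. Of 12 neural stem cell markers, 10 were seen in NSC at a summed level of 55.8, with Gfap and Pax6 at 0, against 2.06 in ESC-2i and 1.81 in ESC-FCS. Summed levels of the marker lists for endothelium, primitive endoderm, mesoderm, blood and fibroblasts did not exceed 0.434 in any of these 3 populations, and that of the neuron list stood at 2.71 for ESC-2i, 5.25 for ESC-FCS and 4.48 for NSC.

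Because each molecule is placed by its 3′ end, the ends themselves show which transcripts were counted. The following are the 30 nt before the most used ends of the genes on which the results turn, 5′ to 3′ on the strand of the gene, taken from GENCODE M21 transcripts on GRCm38. Capitals mark the polyadenylation signal AATAAA or, for Cdh1, which lacks it, ATTAAA, searched on the strand of the gene only. Both Itgb1 windows also hold an ATTAAA that overlaps the marked AATAAA and is not marked itself. They are shown because Epcam, Itgb1 and Cd24a each end at a pair of sites that are compared further on. Coordinates are those of the deposited positions, and since the files do not state whether counting starts at 0 or 1, they may be shifted by 1 nt.

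Cdh1 chr8:106670216-106670245 (+): tgaattttATTAAAgagttttgttaaactg

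Epcam, nearer end, chr17:87650873-87650902 (+): tttttttaatgaAATAAAacattttaaagt

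Epcam, farther end, chr17:87651095-87651124 (+): acaccctatctgaaagaAATAAAaatcaaa

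Itgb1, nearer end, chr8:128732585-128732614 (+): ccaattaaAATAAAattgacacagttgatg

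Itgb1, farther end, chr8:128733162-128733191 (+): gttatttattaaAATAAAaaggcctaaata

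Cd24a, nearer end, chr10:43583442-43583471 (+): cagccaccactgAATAAAtctgatttcaaa

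Cd24a, farther end, chr10:43584230-43584259 (+): acacaaactgtaAATAAAagaaagaaatgg

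In these 7 windows the marked signal ended 7 to 16 nt before the cut. For comparison, AATAAA was found in 67.3% and either signal, some windows holding both, in 82.4% of the 7868 windows of the same length at the most used end of genes with at least 10 molecules in the single cells. The main Cdh1 end held 93 of 102 molecules in ESC-2i and 52 of 60 in ESC-FCS, and lies 1 nt from the end of the annotated terminal exon. In the ESC-2i pools, by contrast, 18 of 66 Cdh1 molecules ended at a second site of the terminal exon, 106668853, which held 1 molecule in ESC-2i cells and 2 in ESC-FCS cells and whose window, agtgctgagatataaactgtgccttttttt, has neither signal.

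Cdh1 (ENSMUSG00000000303, chr8:106603351-106670246, plus strand), the classical cadherin of epithelia, was found in both embryonic stem cell cultures and in no neural stem cell. Its level was 2.77 per 10000 in ESC-2i (2.26 to 3.36, 102 molecules) and 2.65 in ESC-FCS (2.02 to 3.41, 60 molecules). In NSC there was no molecule in 41 cells and 151877 molecules, which allows a level of up to 0.198 at 3 counts, so that Cdh1 set to that floor was at least 14.0-fold lower than in ESC-2i and at least 13.4-fold lower than in ESC-FCS. The exact 95% intervals of these ratios reach down to 11.2-fold and 10.6-fold. Single cells held 0 to 11 molecules in both ESC cultures, with a median of 2 in ESC-2i and 1 in ESC-FCS, and 31 of 33 and 25 of 33 cells held at least 1. The library batches stood close together, at 2.87 and 2.68 in ESC-2i and at 2.92 and 2.28 in ESC-FCS, while both NSC batches were at 0. ESC-FCS over ESC-2i gave a ratio of 0.956 with an interval of 0.683 to 1.33, and of 1.97 when scaled to ERCC spike-ins, synthetic RNAs added to each cell.

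The level of Cdh1 was not the same in sets of cells from the same medium. It was 0.986 in ESC-FCS control cells (0.618 to 1.49), 2.68-fold lower than in the ESC-FCS cells (1.62 to 4.59), although scaled to ERCC the ratio of control to ESC-FCS cells turned to 1.03, and 16 of 42 control cells held a molecule. The control batches differed as well, at 1.34 and 0.452. In the pools it was 1.62 for ESC-FCS and 0.677 for ESC-2i, the latter 4.09-fold below the ESC-2i cells (2.97 to 5.66). Against the control cells, NSC were at least 4.99-fold lower.

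Cdh2 (ENSMUSG00000024304, mouse chromosome 18, minus strand), the cadherin of the neural tube, was rare in every library. It had 9 molecules in NSC, in 8 of 41 cells, a level of 0.593 (0.271 to 1.12) with 4 molecules in library batch 1 and 5 in batch 2. ESC-2i had 3 molecules (0.0814, 0.0168 to 0.238), ESC-FCS 1 (0.0441, 0.00112 to 0.246), the control cells 0 of 223055 and the ESC-2i pools 11 of 974282. The ratio of NSC to ESC-2i was 7.28 with an interval of 1.82 to 41.8, and that of NSC to ESC-FCS was 13.4 with an interval of 1.86 to 589. Both comparisons hold fewer than the 20 molecules set as a minimum, so Cdh2 is not among the genes counted below.

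Where Cdh2 molecules ended also differed between the sets. Of the 9 in NSC, 5 were no more than 10 nt from an annotated end, 2 lay 60 nt before one, 1 was in an intron and 1 in an upstream exon. In ESC-2i and ESC-FCS cells none was that close, and 3 of their 4 molecules were at a position 14306 nt downstream, whereas 10 of the 11 molecules of the ESC-2i pools were at the annotated end. So few molecules give a description of these libraries only.

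No cell held both cadherins in NSC, where Cdh1 was absent. In ESC-2i, 2 of the 3 cells with a Cdh2 molecule also held Cdh1, and the single such cell of ESC-FCS did too. A molecule of Cdh2 or Ncam1 was seen in 14 of 41 NSC, 7 of 33 ESC-2i and 2 of 33 ESC-FCS cells, and a molecule of Cdh1, Epcam, Cldn6, Cldn7 or Pecam1 in 1 of 41, 33 of 33 and 31 of 33. At these depths a cell without a molecule cannot be taken as a cell without the transcript.

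**Figure D1:**
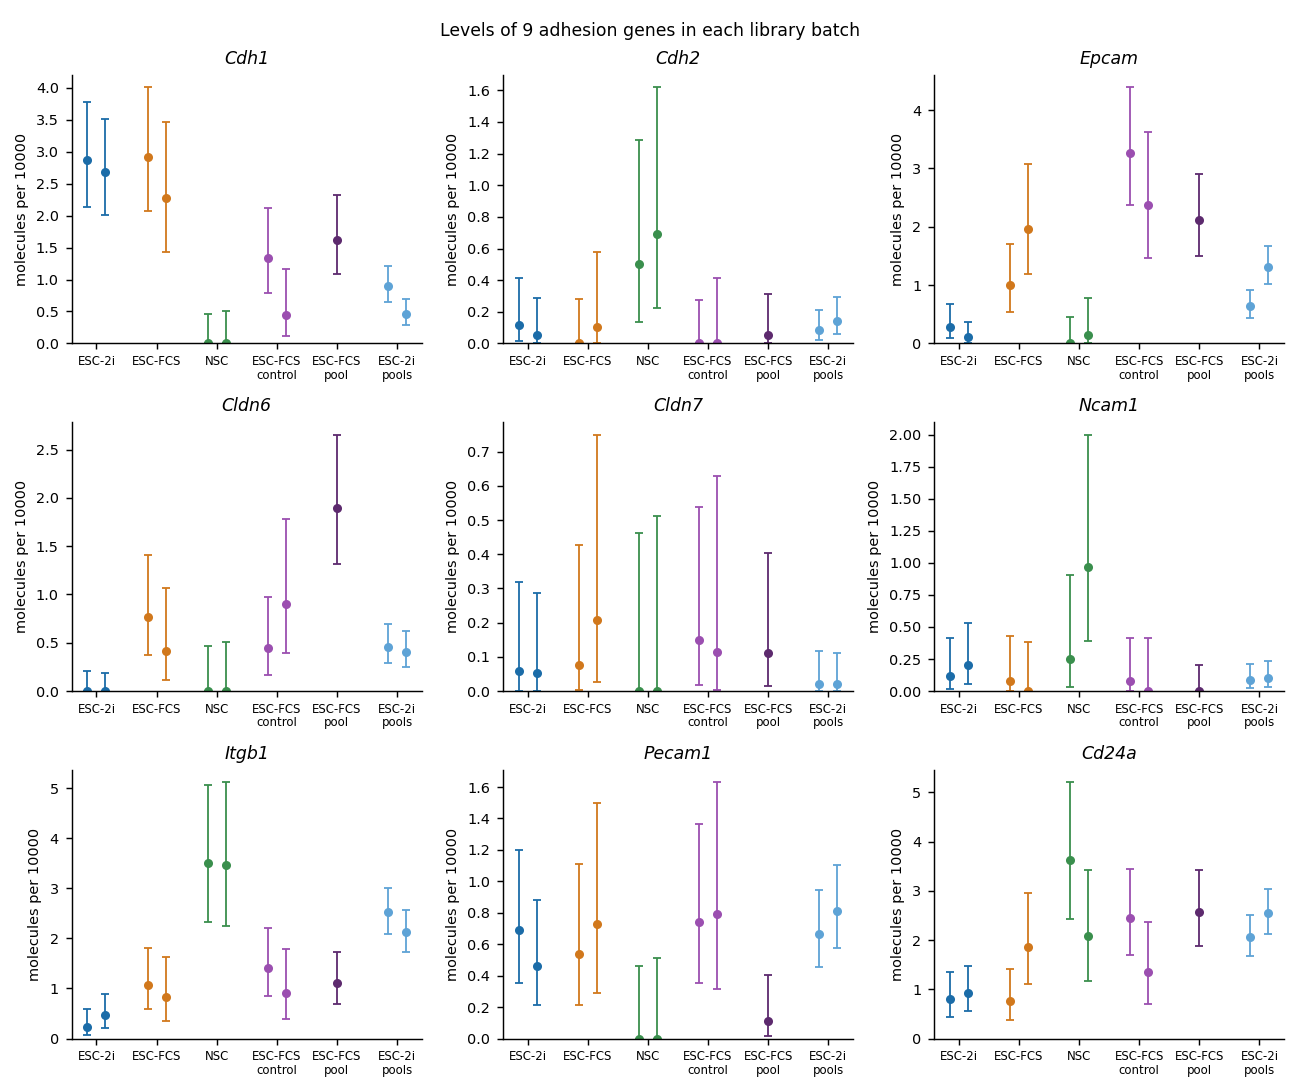
Molecules per 10000 molecules on genes for each of the 9 genes, with 1 point per library batch or pool and exact 95% Poisson intervals as bars; the y axes differ between panels. Cdh1 and Pecam1 were at 0 in both NSC batches, Itgb1 was at 3.51 and 3.47 there, and Epcam in ESC-FCS control cells (3.27 and 2.37) lay above both ESC-FCS batches (0.998 and 1.97).

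Epcam (ENSMUSG00000045394, chr17:87635979-87651129, plus strand) is an epithelial adhesion molecule that can loosen cadherin contacts. It separated ESC-FCS cells from ESC-2i cells more than any other of the 9 genes with enough molecules to compare. It had 7 molecules in ESC-2i (0.190, 0.0764 to 0.392), 32 in ESC-FCS (1.41, 0.966 to 1.99) and 1 in NSC (0.0658, 0.00167 to 0.367). ESC-FCS over ESC-2i was 7.43 (3.22 to 19.9), and NSC lay 21.4-fold below ESC-FCS (3.58 to 873). At least 1 molecule was seen in 20 of 33 ESC-FCS cells, 6 of 33 ESC-2i cells and 1 of 41 NSC. The ESC-2i batches were 0.287 and 0.103 and the ESC-FCS batches 0.998 and 1.97, so they did not overlap. In library batch 1 alone, ESC-FCS and ESC-2i held fewer than 20 Epcam molecules together, and so did ESC-FCS and NSC.

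Epcam also differed between sets from the same medium. It was 2.91 in control cells, 2.06-fold above the ESC-FCS cells (1.33 to 3.26), and 2.12 in the ESC-FCS pool. In the ESC-2i pools it was 0.985, 5.19-fold above the ESC-2i cells (2.42 to 13.2), and the pools stood at 0.647 and 1.31. Control cells remained 2.96-fold above the ESC-2i pools (2.12 to 4.09). The ESC-FCS cells, at 1.41, were less than 2-fold above the ESC-2i pools, so the 7.43-fold holds against the ESC-2i cells only. By library, the ESC-FCS cells and the ESC-2i pools overlapped.

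The claudins, which seal tight junctions, were present at few molecules. Cldn6 (ENSMUSG00000023906, chr17:23679249-23682446, plus strand), a claudin of early epithelia, had 0 molecules in ESC-2i, 14 in ESC-FCS (0.618, 0.338 to 1.04) and 0 in NSC. The 14 molecules of ESC-FCS came from 7 of 33 cells, with 5 in the highest cell and 3 in the next. The 14 molecules of the control cells came from 12 of 42, with at most 2 in a cell. ESC-FCS lay at least 7.58-fold above ESC-2i, but the total of 14 molecules is under the minimum of 20, and the ESC-2i pools held 42 molecules (0.431, 0.311 to 0.583). The ESC-FCS pool was at 1.90, 3.02-fold above the control cells (1.58 to 6.10). Cldn7 (ENSMUSG00000018569, chr11:69964779-69967885, plus strand), which forms complexes with Epcam, had 2 molecules in ESC-2i, 3 in ESC-FCS, 3 in control cells and 0 in NSC, too few to compare.

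Pecam1 (ENSMUSG00000020717, chr11:106654217-106750628, minus strand), known from endothelium and also used as a surface marker of mouse embryonic stem cells, was at 0.570 in ESC-2i (0.353 to 0.871, 21 molecules) and 0.618 in ESC-FCS (0.338 to 1.04, 14 molecules), and at 0 in NSC. Set to the floor of 3 counts, it was at least 2.89-fold lower in NSC than in ESC-2i, and the exact interval reaches down to 2.15-fold. Without the highest cell, which held 4 of its 21 molecules, it no longer reached 20 molecules. ESC-FCS over ESC-2i was 1.08 (0.510 to 2.23). Control cells (0.762) and ESC-2i pools (0.739) were close to both, and the ESC-FCS pool was at 0.112 with 2 molecules. Other endothelial genes were nearly absent: of the 8 on that list, Cldn5, Emcn, Tie1 and Esam had no molecule in ESC-2i or ESC-FCS, and the list summed to 16 molecules in ESC-2i and 6 in ESC-FCS.

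**Figure D2:**
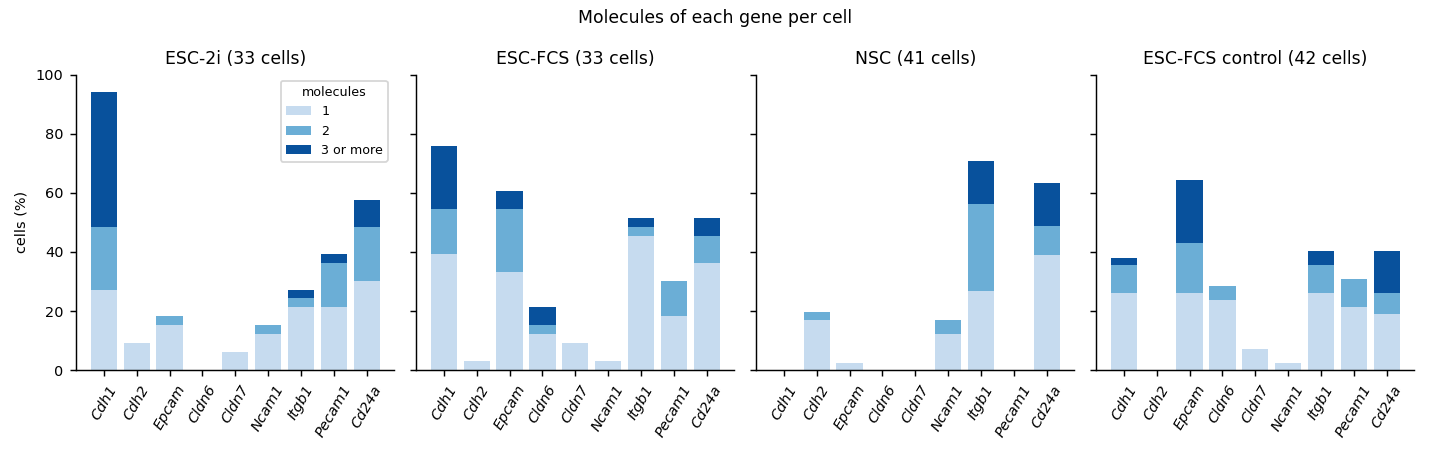
Percentage of cells (y axis) with 1, 2 or at least 3 molecules of each gene (x axis), for ESC-2i, ESC-FCS, NSC and ESC-FCS control cells; the rest of each bar up to 100% had none. Cdh1 was seen in 31 of 33 ESC-2i cells and in no NSC, and Itgb1 in 29 of 41 NSC and 9 of 33 ESC-2i cells.

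Itgb1 (ENSMUSG00000025809, chr8:128685654-128733200, plus strand) was highest in NSC. It was 3.49 there (2.61 to 4.56, 53 molecules), against 0.353 in ESC-2i (0.188 to 0.603, 13 molecules) and 0.971 in ESC-FCS (0.608 to 1.47, 22 molecules). NSC were 9.89-fold above ESC-2i (5.32 to 19.8) and 3.60-fold above ESC-FCS (2.15 to 6.21). Both NSC batches, 3.51 and 3.47, lay above all batches of ESC-2i and ESC-FCS, whose highest was 1.07. NSC cells held 0 to 3 molecules (median 1), and 29 of 41 held at least 1, against 9 of 33 in ESC-2i and 17 of 33 in ESC-FCS.

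Among embryonic stem cells, ESC-FCS over ESC-2i was 2.75 for Itgb1 (1.33 to 5.94), and the direction did not hold in the pools. The ESC-2i pools were at 2.32 (2.03 to 2.64), 6.57-fold above the ESC-2i cells (3.77 to 12.5), and with them in place of the cells the ratio fell to 0.418. NSC, at 3.49, were less than 2-fold above these pools, so the 9.89-fold holds against the ESC-2i cells only. Control cells (1.21) and the ESC-FCS pool (1.12) stood near the ESC-FCS cells. NSC were 2.88-fold above the control cells (1.78 to 4.77) but stood at 0.410 of them when scaled to ERCC.

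Cd24a (ENSMUSG00000047139, chr10:43578284-43584265, plus strand) was at 2.90 in NSC (2.11 to 3.89, 44 molecules), 0.869 in ESC-2i (0.594 to 1.23, 32 molecules) and 1.24 in ESC-FCS (0.821 to 1.79, 28 molecules). NSC were 3.33-fold above ESC-2i (2.07 to 5.43) and 2.35-fold above ESC-FCS (1.43 to 3.91), the latter turning to 0.926 when scaled to ERCC. The NSC batches were 3.63 and 2.08 and those of ESC-FCS 0.768 and 1.87, where 1 cell of batch 2 held 7 of the 18 molecules, so in batch 2 alone Cd24a was under 2-fold between NSC and ESC-FCS. Control cells were at 2.02 (1.47 to 2.70), NSC were 1.44-fold above them (0.926 to 2.23) but at 0.204 of them when scaled to ERCC, and 1 control cell held 11 of their 45 molecules. The ESC-FCS pool was at 2.57 (1.88 to 3.42) and the ESC-2i pools at 2.31 (2.02 to 2.63), both within the interval of NSC. These ESC-2i pools were 2.66-fold above the ESC-2i cells (1.83 to 3.98).

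Ncam1 (ENSMUSG00000039542, chr9:49502136-49798925, minus strand), the neural cell adhesion molecule, had 9 molecules in NSC (0.593, 0.271 to 1.12), 6 in ESC-2i (0.163, 0.0598 to 0.355) and 1 in ESC-FCS (0.0441, 0.00112 to 0.246). NSC over ESC-2i was 3.64 (1.16 to 12.4). Of the 9 NSC molecules, 7 came from batch 2. The ends of these molecules were different: in NSC, 5 lay at 49502142, the 3′ limit of the gene, 3 at 49517091 and 1 at 49515137, while in ESC-2i 5 of 6 lay within introns, at 49528968 and 49531315, in the region where a short annotated transcript ends. The ESC-FCS molecule and 4 of the 9 pool molecules of ESC-2i were at 49531277, 1 nt from that annotated end. Enzymes that add polysialic acid to Ncam1 were barely seen, St8sia4 with 1 molecule in NSC and St8sia2 with none in the 3 populations.

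By the size rule, a gene counted as changed when levels were at least 2-fold apart and at least 20 molecules were seen in both populations together. In NSC against ESC-FCS, 4 of 4 such members were changed, where 39.3% of 3600 genes were. Itgb1 and Cd24a were higher (20.9% of all genes were higher in NSC) and Cdh1 and Epcam were lower (18.4%). In NSC against ESC-2i, 4 of 4 members were changed, where 43.6% of 4803 genes were, with Itgb1 and Cd24a higher (19.3%) and Cdh1 and Pecam1 lower (24.3%). All 4 members in either comparison also had library batches that did not overlap, as did 36.7% and 40.6% of all genes. The median log2 ratio of the members was -1.26 against ESC-FCS and 0.10 against ESC-2i, with 0.05 and -0.05 over all genes.

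In ESC-FCS against ESC-2i, 2 of 5 members were changed, Epcam and Itgb1, where 22.6% of 5007 genes were. Between sets of ESC-FCS cells the share over all genes was no smaller: in the control cells against ESC-FCS, 2 of 6 members were changed, Cdh1 lower and Epcam higher, where 25.2% of 4064 genes were. In the ESC-2i pools against the ESC-2i cells, 5 of 6 members were changed, where 53.8% of 8495 genes were, and the ESC-FCS pool against the control cells, made on the same day, gave 1 of 5, Cldn6, with 15.5% of 4056 genes. NSC against the control cells gave 3 of 4 members, Cdh1, Epcam and Itgb1, with 47.3% of 3781 genes.

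**Figure D3:**
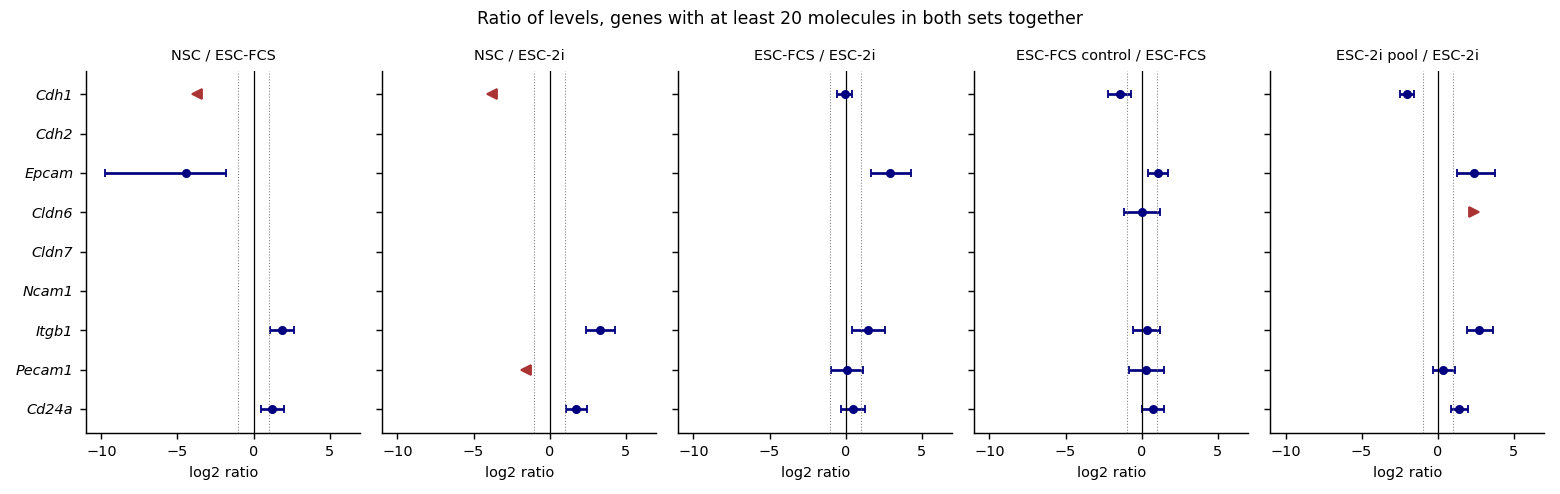
Log2 ratio of levels (x axis) for the genes with at least 20 molecules in both sets together, in 5 comparisons; bars are exact 95% intervals, red triangles are bounds where a population was at 0, and dotted lines mark 2-fold. Cdh1, Epcam and Pecam1 lay left of the line in NSC where they could be compared, and Itgb1 and Cd24a right of it, and the control cells lay past the line for Cdh1 and Epcam in the same medium, where scaling to ERCC turned Cd24a in NSC over ESC-FCS to 0.926 and Cdh1 in control over ESC-FCS cells to 1.03.

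Some of the directions depend on what a level is scaled to. ERCC spike-ins made up 9.53% of molecules for NSC, 3.99% for ESC-FCS, 7.90% for ESC-2i and 1.48% for control cells. Scaled to them, the median gene was 2.45-fold lower in NSC than in ESC-FCS and 1.28-fold lower than in ESC-2i, while it was 1.97-fold higher in ESC-FCS than in ESC-2i and 3.10-fold higher in control than in ESC-FCS cells. Every ratio is moved by the same factor, which was 0.395 for NSC over ESC-FCS, 0.813 for NSC over ESC-2i, 2.06 for ESC-FCS over ESC-2i, 2.78 for control over ESC-FCS cells and 0.142 for NSC over control cells. On that scale Cd24a in NSC over ESC-FCS turned from 2.35 to 0.926 and Itgb1 went from 3.60 to 1.42, while over ESC-2i Itgb1 and Cd24a stayed above 2-fold, at 8.04 and 2.71. Cdh1 and Epcam were lower in NSC on either scale. Per cell, the median number of ERCC molecules was 343 in NSC, 273 in ESC-FCS, 883 in ESC-2i and 76 in control cells. Why the ERCC shares differ was not tested.

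Depth was evened out by thinning every cell to 2000 molecules, which left out 1 ESC-FCS cell and 8 NSC. In a single random thinning Cdh1 was seen in 60.6% of 33 ESC-2i cells (42.1 to 77.1%, exact Clopper-Pearson), 40.6% of 32 ESC-FCS cells (23.7 to 59.4%) and 0 of 33 NSC. That draw was far from the middle for ESC-2i, since the exact mean over all possible thinnings, computed after the draw was seen, was 40.7% for ESC-2i and 37.6% for ESC-FCS. The gap between the ESC cultures in the draw is therefore not read as a difference.

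Itgb1, Cd24a and Epcam are given in both forms. Itgb1 was seen in 45.5% of NSC (28.1 to 63.6%), 12.1% of ESC-2i (3.40 to 28.2%) and 25.0% of ESC-FCS (11.5 to 43.4%), with means over all thinnings of 49.5%, 6.20% and 21.8%. Cd24a gave 36.4% of NSC (20.4 to 54.9%), 21.2% of ESC-2i (8.98 to 38.9%) and 21.9% of ESC-FCS (9.28 to 40.0%), so its intervals overlapped, with means of 41.7%, 16.5% and 19.7%. Epcam was seen in 28.1% of ESC-FCS, 3.03% of ESC-2i and 0% of NSC, with means of 26.3%, 3.64% and 0%. Cdh2 was seen in 3 of 33 NSC and in no cell of the other populations, with means of 9.48% for NSC, 2.43% for ESC-2i and 0.527% for ESC-FCS. Ncam1 was seen in 9.09% of NSC, 0% of ESC-2i and 3.13% of ESC-FCS, with means of 10.3%, 3.35% and 1.33%, so the order of the ESC cultures turned between the forms.

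None of the 9 genes was called variable between the cells of a population beyond technical noise. The test of Brennecke and colleagues, fitted on the ERCC transcripts with a biological margin of 0.25 and Benjamini-Hochberg adjustment over all genes tested, could take 3 members in ESC-2i (Cdh1, Pecam1 and Cd24a), 4 in ESC-FCS (Cdh1, Epcam, Itgb1 and Cd24a) and 2 in NSC (Itgb1 and Cd24a). It called 0 of each at an adjusted p below 0.1, where 0.719%, 3.85% and 2.16% of all genes were called. At an unadjusted p below 0.05 in the same test there was 1 member, Cd24a in NSC. Of all genes tested, 74 of 1157 in NSC, 176 of 2026 in ESC-FCS and 100 of 3616 in ESC-2i were below it. The squared coefficient of variation (CV2) of Cd24a in NSC was 2.00 where technical noise alone gave 1.14 over 41 cells. The same test gave it an adjusted p of 0.617. For Cdh1 in ESC-2i the CV2 of 0.460 and the technical CV2 of 0.465 were nearly equal. A member that was not called cannot be taken as uniform between cells. Recovery on simulated counts was not split by level, and it was measured on well expressed genes with strong added variance.

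Itgb1 and Cd24a met the rule for 2 sites, each with at least 10% of the molecules of the gene and at least 10 molecules over ESC-2i, ESC-FCS and NSC. The sites of Itgb1 lie 577 nt apart in the terminal exon. The farther end took 86.8% of 38 molecules in NSC (71.9 to 95.6%, exact Clopper-Pearson), 69.2% of 13 in ESC-2i (38.6 to 90.9%) and 65.0% of 20 in ESC-FCS (40.8 to 84.6%). The checks gave 73.1% of 26 in control cells, 70.6% of 17 in the ESC-FCS pool and 66.7% of 225 in the ESC-2i pools (60.1 to 72.8%). The interval of NSC overlapped those of all 5 other sets.

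The ends of Cd24a, 788 nt apart in its terminal exon, were used unequally by the sets. The farther end took 56.3% of 32 molecules in ESC-2i (37.7 to 73.6%), 53.6% of 28 in ESC-FCS (33.9 to 72.5%) and 70.5% of 44 in NSC (54.8 to 83.2%). It took 93.3% of 45 in control cells (81.7 to 98.6%), 91.3% of 46 in the ESC-FCS pool (79.2 to 97.6%) and 89.7% of 223 in the ESC-2i pools (84.9 to 93.3%), which were at 79.4% and 97.6%. The intervals of the control cells and the ESC-FCS cells did not overlap although the medium was the same. Epcam had only 8 molecules at its farther end in those cells and is given by counts alone, with 20 molecules at the nearer and 7 at the farther end in ESC-FCS, 49 and 16 in control cells, and 62 and 34 in the ESC-2i pools.

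**Figure D4:**
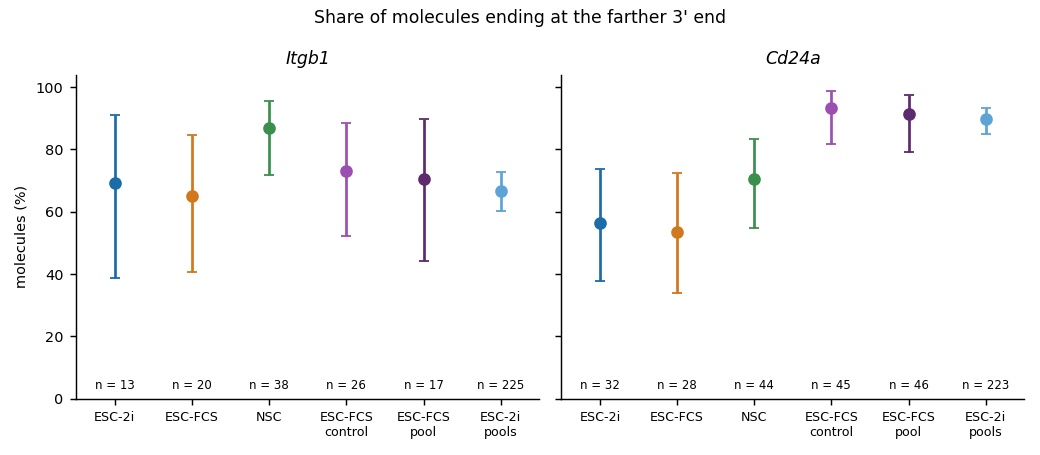
Share of Itgb1 and Cd24a molecules at the farther of 2 ends (y axis, percent) in each set, with exact 95% Clopper-Pearson intervals and the number of molecules below. For Cd24a the 3 sets made apart from the main cells lay at 89.7% to 93.3%, and the main cells at 53.6% to 70.5%.

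The other genes of adhesion were counted by the same rule, by which 20.9% of all genes were higher and 18.4% lower in NSC than in ESC-FCS, and 19.3% were higher and 24.3% lower in NSC than in ESC-2i. With so few genes compared in each list, the counts are a description and no list is set apart from all genes by them. Of 13 genes of catenins and adherens junctions, 8 had enough molecules in NSC against ESC-FCS, with 1 higher and 3 lower (median log2 ratio -0.31, all genes 0.05), and 7 in NSC against ESC-2i, with 2 higher and 2 lower (0.42, all genes -0.05). Jup, the plakoglobin shared by adherens junctions and desmosomes, was at 2.61 for ESC-2i, 1.15 for ESC-FCS and 0 for NSC, at least 13.2-fold and at least 5.81-fold lower. Ctnna1, alpha-catenin, was at 4.13, 3.53 and 2.04, 2.02-fold lower in NSC than in ESC-2i (1.37 to 3.08). Ctnnb1, the beta-catenin that binds Cdh1 and Cdh2 alike, was at 7.17, 7.50 and 9.61, and NSC over ESC-2i was 1.34 (1.09 to 1.65), under 2-fold. Afdn, which links nectins to actin, was at 0.543, 1.76 and 0.724.

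Other cadherins gave no comparison: 9 of 12 were seen and none reached 20 molecules, Cdh4 leading with 10 molecules in NSC and 1 in each ESC culture, and Cdh13 with 2, 3 and 2. Of 18 genes of other claudins and tight junctions, 2 could be compared between NSC and ESC-FCS and 3 between NSC and ESC-2i, with 1 higher in each, Cldn12 (0.856 in NSC, 0.271 in ESC-2i, 0.397 in ESC-FCS), whose ratio to ESC-FCS had an interval of 0.853 to 5.71 and fell below 1 when scaled to ERCC. Tjp1, a scaffold of tight junctions, was at 0.618 in ESC-FCS and 0.244 in ESC-2i, and Pard3, a cell polarity protein, stayed within 2-fold where it could be compared. Of 8 desmosome genes, Pkp2 was at 0.597 in ESC-2i and 0 in NSC, at least 3.02-fold lower, and Pkp4 was at 1.09 and 0.724.

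Of 15 other integrin subunits, alpha and beta, 2 could be compared between NSC and ESC-FCS, Itga6 and Itgav, both higher in NSC. In NSC against ESC-2i 3 were compared, with 1 higher, Itga6, and 1 lower, Itga5. Itga6, of the laminin receptor, was at 1.32 in NSC, 0.441 in ESC-FCS and 0.624 in ESC-2i, a ratio of 2.99 to ESC-FCS (1.33 to 7.14) and 2.11 to ESC-2i (1.10 to 4.02). Itgav was at 1.78, 0.397 and 1.11. Scaled to ERCC, Itga6 and Itgav were both under 2-fold between NSC and ESC-FCS. Both were also more than 2-fold higher in the control cells than in ESC-FCS, and neither differed 2-fold between NSC and control cells. Itga5, of the fibronectin receptor, was at 0.198, 0.176 and 0.543.

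In the matrix list the genes went both ways. In NSC against ESC-2i, 10 of 16 could be compared, 2 higher and 5 lower (median log2 ratio -0.86, all genes -0.05), and in NSC against ESC-FCS 6, 3 higher and 2 lower (0.66, all genes 0.05). Fn1, fibronectin, was at 4.91 for ESC-2i, 3.35 for ESC-FCS and 0 for NSC, at least 24.9-fold and at least 17.0-fold lower. Nid2, a basement membrane nidogen, was at 2.90, 2.69 and 0. Sparc, a secreted matrix protein, was at 4.21 in NSC, 2.52 in ESC-2i and 0.529 in ESC-FCS.

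Among immunoglobulin-type molecules, 4 of 17 could be compared between NSC and ESC-2i, with 1 higher and 1 lower (median log2 ratio 0.35, all genes -0.05). Icam1, a ligand of leukocyte integrins, was at 1.63 for ESC-2i, 0.794 for ESC-FCS and 0 for NSC. Bcan, the brain proteoglycan brevican, was at 4.67 in NSC with 71 molecules, against 1 molecule in ESC-2i and 0 in ESC-FCS. Cadm1 was at 0.856 in NSC, 0.462 in ESC-2i and 0.309 in ESC-FCS, and Bsg stayed within 2-fold in all 3 comparisons.

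Of the 9 epithelial partners of Epcam and tetraspanins, 0 were higher in NSC, while 1 of 4 was lower than in ESC-FCS and 2 of 4 were lower than in ESC-2i (median log2 ratios -0.33 and -0.89, all genes 0.05 and -0.05). Spint1 and Spint2, inhibitors of membrane proteases, went opposite ways between ESC cultures: Spint1 was at 1.38 in ESC-2i and 0.441 in ESC-FCS, and Spint2 at 0.136 and 0.706. Cd9 was at 1.68, 0.926 and 0.593 in ESC-2i, ESC-FCS and NSC, and Cd81 at 3.01, 1.76 and 2.50. Control cells were 4.31-fold above ESC-FCS for Cd9 and 2.26-fold for Cd81, and NSC over control cells was 0.149 and 0.627. Of 12 regulators of epithelial and mesenchymal state, only Zeb1 and Tcf3 had enough molecules. Zeb1, a repressor of Cdh1, was at 6.19 in NSC (94 molecules, 5.77 and 6.66 by batch), 12.0-fold above ESC-2i (7.27 to 20.8), and at 0.516 in ESC-2i and 0.0882 in ESC-FCS. Tcf3 was at 0.724 in NSC, 0.380 in ESC-2i and 0.573 in ESC-FCS, within 2-fold. In control cells, however, Tcf3 was 3.05-fold above ESC-FCS (1.59 to 6.22), and NSC lay 2.41-fold below them (1.21 to 5.23).

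**Figure D5:**
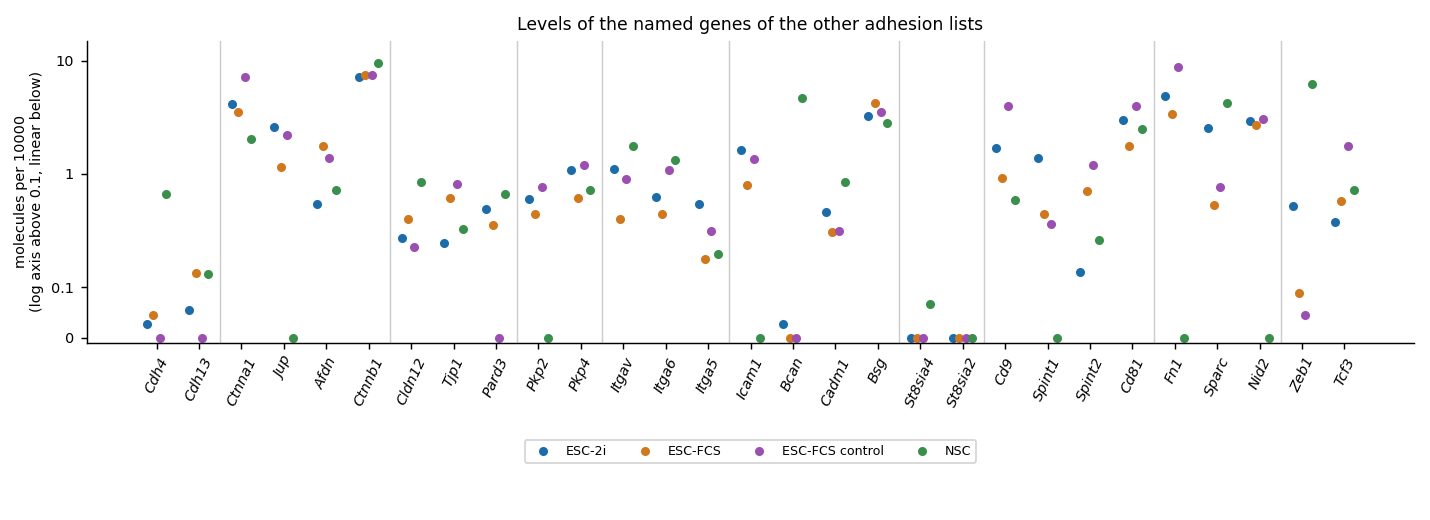
Molecules per 10000 (y axis, logarithmic above 0.1 and linear below) of the named genes of the other adhesion lists in ESC-2i, ESC-FCS, ESC-FCS control cells and NSC; grey lines separate the lists and points have no error bars. Jup, Pkp2, Icam1, Spint1, Fn1 and Nid2 were at 0 in NSC, and Bcan and Zeb1 stood at 4.67 and 6.19 there.

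Over the 11 libraries, the genes whose log2 levels (with 0.1 added) were most like those of Cdh1 among 2754 genes with at least 50 molecules were Tcea3 (Pearson r = 0.96), the gene ENSMUSG00000092486 (0.96) and Apoe (0.96). Apoe, an apolipoprotein, was at 10.3 in ESC-2i, 12.5 in ESC-FCS, 0.198 in NSC and 2.75 in the ESC-2i pools. Those most like Cdh2 were Gm12046 (0.95), Serpine2 (0.94) and Pea15a (0.92), with Serpine2, a protease inhibitor, at 9.35 in NSC and 0.244 in ESC-2i. These libraries share cultures and preparation, NSC supplies 2 of the 11, and Cdh2 had few molecules in each, so the values describe likeness only.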

How the data were processed

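BATSeq counts came from single cells and pools. As deposited by the authors, each file holds whole-number counts of UMIs and reads per polyadenylation site, without normalization; the submitters' processing notes name HTSeq, R 3.0.2 and GRCm38, and the methods name GSNAP. The table of genes, also counts as deposited, was used for the main cells (site sums for control cells and pools, antisense sites left out). The last 2 column names of the site files are exchanged and were read by content. The table of isoforms was not used. Sites within 25 nt were merged over all libraries.

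Cells with at least 1000 molecules were pooled per population. Ratios have exact intervals from the binomial distribution, a population at 0 is set to 3 counts, and shares have exact Clopper-Pearson intervals at a confidence of 95%. Folds given as at least rest on that floor and are not 95% limits, which are lower. The limit was 5.39-fold for Cldn6 in ESC-FCS over ESC-2i. For NSC below ESC-2i it was 10.5-fold for Jup, 2.26-fold for Pkp2 and 20.0-fold for Fn1. Depth is given with the values. Libraries were grouped by the labels, in 2 library batches per population. Thinning was a single draw with the seed 7, beside its exact mean. The variability test used median-ratio size factors, genes with a normalized mean above 0.5 and a noise fit on spike-ins whose mean reached the 0.95 quantile found among those with a squared coefficient of variation over 0.3. On simulated counts it recovered 191 of 200 variable genes among 3654 tested in ESC-2i, 181 among 2085 in ESC-FCS and 190 among 1230 in NSC; 19.7%, 26.4% and 10.4% of its calls were unchanged genes.

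Named genes of each other list are the 3 with most molecules among those 2-fold apart and the 2 with most molecules overall. A gene that this rule names is not reported here. All listed symbols matched the annotation. The members and lists were chosen with earlier results of these data known. Software was Python 3.11.15, numpy 2.4.6, pandas 2.3.3, scipy 1.17.1, statsmodels and matplotlib.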

Additional observations from a re-analysis of the deposited data

How the results depend on the processing

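No paired analysis was possible because replicate numbers only follow the order of accession and mark no shared culture. The members called 2-fold apart in NSC against ESC-FCS went from 4 to 2 with scaling to ERCC and to 8 with no minimum of molecules, and in NSC against ESC-2i from 4 to 7 with no minimum. With the ESC-2i pools in place of the ESC-2i cells, Itgb1 (3.49 in NSC, 2.32 in pools) and Cd24a (2.90 and 2.31) were under 2-fold apart. Cdh2, at 0.593 in NSC and 0.113 in the pools, stayed higher in NSC. In ESC-FCS against ESC-2i the count of 2 became 4 with ERCC scaling, 0 in library batch 1 alone, 5 with no minimum, 0 at a minimum of 50 molecules, 1 at a fold of 3 and 4 with the control cells in place of ESC-FCS. In the control cells against ESC-FCS the count of 2 became 5 with ERCC scaling, 1 with the mean over cells, 1 in library batch 2 alone and 0 at a fold of 3. With ERCC scaling the median gene was itself 3.10-fold higher in control than in ESC-FCS cells. It was 1.97-fold higher in ESC-FCS than in ESC-2i and 2.45-fold lower in NSC than in ESC-FCS. With the control cells in place of ESC-FCS, 37.1% of 5150 genes were 2-fold apart from ESC-2i. For the other settings no share over all genes is given, so these counts are not read as results about the members. Among the member ratios taken through the alternatives, 3 of those past 2-fold changed direction. With ERCC scaling these were Cd24a in NSC over ESC-FCS (0.926) and Cdh1 in control cells over ESC-FCS (1.03). With the pools in place of the cells it was Itgb1 in ESC-FCS over ESC-2i (0.418). NSC over control cells was not part of that count, and there ERCC scaling turned Itgb1 from 2.88 to 0.410. For the other adhesion lists no such count is given, but Cldn12 in NSC over ESC-FCS, at 2.16, also changed direction with ERCC scaling. Under 2-fold, Cdh1 in ESC-FCS over ESC-2i went from 0.956 to 1.97 with ERCC scaling and to 3.91 with the pools in place. The cause was not tested. Of the other member ratios taken through the alternatives, 338 stayed within the interval of the reported value and 47 left it. Cd24a in NSC was called variable with a CV2 margin of 0 and with all spike-in species, where the count of members rose from 0 to 1. Calls over all 1157 genes tested in NSC rose as well, from 25 to 82 and to 77. Thinned to 1000 molecules instead of 2000, detection fell to 9.09% for Cdh1 and 6.06% for Cd24a in ESC-2i, to 9.09% for Itgb1 in ESC-FCS, to 24.4% for Itgb1 in NSC, and to 0% for Epcam and Pecam1 in ESC-2i and Cldn7 and Ncam1 in ESC-FCS. Detection of Cdh1 in ESC-2i was 40.7% as the exact mean over all thinnings to 2000 molecules, against 60.6% in the single draw, so part of the fall to 1000 lies in the draws. The share of the farther end of Cd24a in NSC was 86.7% in library batch 2 alone. Merging sites within 12 nt, the control cells and pools in place of main cells, the mean over all thinnings and ERCC scaling against control cells were alternatives chosen after seeing the data. Depth limits the 4 genes with under 20 molecules in most comparisons, Cdh2, Ncam1, Cldn6 and Cldn7.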
